A study of Mus musculus with 34 samples.

Results

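Expression in the cortex of R6/2 mice that also lacked 1 Hdac4 allele (Dble::R6/2, n = 9) was set against that of R6/2 mice with both Hdac4 alleles (R6/2, n = 9), a comparison of 18 of the 34 arrays in the series, chosen by the genotype in the sample labels. All mice were 15 weeks old and on a mixed CBA x C57Bl/6 background. R6/2 mice carry exon 1 of the human HTT gene with an expanded CAG repeat as a transgene under the human HTT promoter, and were the background shared by both groups, so that neither group was free of disease. The targeted Hdac4 allele was a constitutive knock-out present in all cells and was studied in heterozygotes, because mice without Hdac4 die early in life. Hdac4HET mice with the targeted allele and no transgene (n = 8) and WT mice (n = 8) gave the scale of the transgene and of the allele alone. The comparison asks how far the cortical transcriptome of an R6/2 mouse shifts when Hdac4 is reduced.

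Histone deacetylase 4 is a class IIa deacetylase that shuttles between nucleus and cytoplasm. In the nucleus it binds MEF2 transcription factors and recruits corepressors, and phosphorylation by CaM kinases and salt-inducible kinases lets 14-3-3 proteins hold it in the cytoplasm. In the Huntington's disease brain, mutant huntingtin fragments aggregate and many neuronal genes lose expression, with cortical and striatal projection neurons among the cells affected.

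Each array measured 45037 probe sets on a log2 scale, and each difference given here is in log2 units, Dble::R6/2 minus R6/2 unless another pair is named. The 18 arrays correlated closely within a genotype, except that R6/2 replicate 2 had a mean correlation of 0.978 with its group where the other R6/2 arrays had 0.989 to 0.992. In that array 51 probe sets lay more than 1 log2 unit above, and 361 lay more than 1 log2 unit below, every other array, whereas none of the other 17 arrays had more than 6 such probe sets above or 4 below. It carried epidermal transcripts, and estimates that moved by more than 1.5 times without it are given both ways for most of the genes named below. The sex in the labels went against the level of Xist, the RNA of the inactive X chromosome, in 15 of the 34 arrays, among them 4 Dble::R6/2 arrays and 1 R6/2 array. That R6/2 array was again replicate 2, labelled female but low in Xist. Neuronal markers were high in every array: cortical neuron markers averaged 10.37 in Dble::R6/2 and 10.45 in R6/2.

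The targeted gene was lower in Dble::R6/2 on the second brightest of its 3 probe sets. There Hdac4 ranged from 7.01 to 7.56 with a median of 7.26 in Dble::R6/2, against 7.67 to 7.99 with a median of 7.87 in R6/2. Every Dble::R6/2 array lay below every R6/2 array. The mean was 7.25 ± 0.17 in Dble::R6/2 and 7.86 ± 0.09 in R6/2 (SD, n = 9 each), and the difference was -0.61 ± 0.07 (SE, limma adjusted p = 3.3e-04). Dble::R6/2 thus held 65.5% of the R6/2 level, with a 95% interval of 59.3% to 72.3%. Without R6/2 replicate 2 the difference was -0.61 (limma adjusted p = 9.6e-04).

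The brightest Hdac4 probe set ranged from 7.32 to 7.80 with a median of 7.54 in Dble::R6/2, and from 7.54 to 8.14 with a median of 7.94 in R6/2. The lowest R6/2 value was replicate 2. Only 5 of the 9 Dble::R6/2 arrays lay below all 9 R6/2 arrays, and 8 lay below the other R6/2 arrays once replicate 2 was set aside. The difference was -0.33 ± 0.08 (SE, limma adjusted p = 0.691), or 79.3% of the R6/2 level, and -0.38 (limma adjusted p = 0.176), or 76.8%, without replicate 2. The dimmest probe set read 4.67 ± 0.20 in Dble::R6/2 and 4.75 ± 0.23 in R6/2 (SD, n = 9 each), and its difference of -0.08 had an interval from -0.28 to 0.12. On that probe set R6/2 was itself lower than WT by a difference of -0.39 (limma adjusted p = 0.0045), and Hdac4HET was lower than WT by a difference of -0.36 (limma adjusted p = 0.03). Where the probe sets lie with respect to the deleted exons was not analysed here.

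Prm1, which encodes protamine 1, a small basic protein that packs DNA in sperm heads, was the only other gene with a called probe set. Its dimmest probe set ranged from 4.10 to 5.05 with a median of 4.44 in Dble::R6/2, against 2.40 to 2.66 with a median of 2.58 in R6/2. Its second brightest ranged from 3.73 to 5.08 with a median of 4.5 in Dble::R6/2, against 2.52 to 2.87 with a median of 2.61 in R6/2. On both, all 9 Dble::R6/2 arrays stood above all 9 R6/2 arrays. The dimmest was higher by 2.01 ± 0.11 (SE, limma adjusted p = 2.2e-09) and the second brightest by 1.86 ± 0.13 (SE, limma adjusted p = 8.2e-08), and without R6/2 replicate 2 by 2.02 and 1.84. The brightest Prm1 probe set differed by 0.30 ± 0.06 (SE, limma adjusted p = 0.206), with 8 of 9 Dble::R6/2 arrays above all R6/2 arrays. Hdac4HET carried the same signal against WT, with differences of 0.99 on the dimmest (limma adjusted p = 1.5e-05) and 1.22 on the second brightest (limma adjusted p = 3.8e-05). Over 20 transcripts of the haploid male germ cell, with the brightest Prm1 probe set among them, the mean differed by 0.01, with a 95% interval from -0.06 to 0.07. Prm1 was the only one of the 20 with an unadjusted p under 0.05, where 2.4% of all genes were higher and 4.04% lower. Prm3, with -0.07, was the lowest of the 20. What the 2 Prm1 probe sets detect in cortex was not tested.

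**Figure D1:**
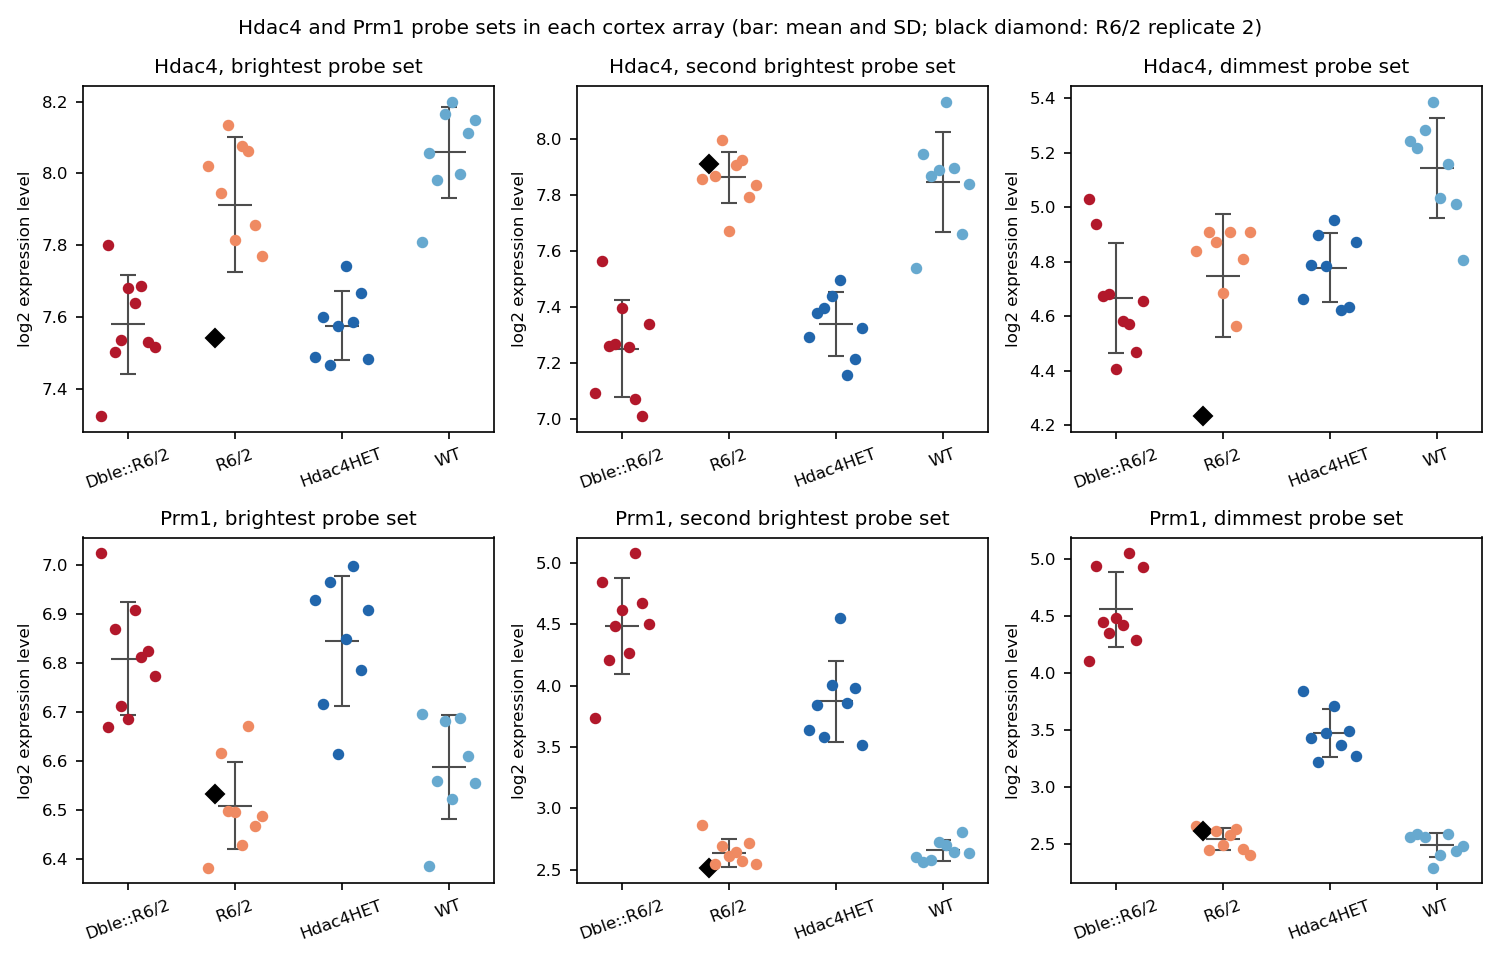
Log2 expression level (y axis) of the 3 Hdac4 and 3 Prm1 probe sets in each array, by genotype (x axis); points are mice, bars are mean and SD, and the black diamond is R6/2 replicate 2. Dble::R6/2 and R6/2 do not overlap on the second brightest Hdac4 probe set or on the second brightest and dimmest Prm1 probe sets, and R6/2 replicate 2 is the lowest R6/2 array on the other 2 Hdac4 probe sets.

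The promoters of these 2 genes, the only ones with a call, are shown for their contrast. Each is the 250 bases before the RefSeq start in build GRCm38.p6, on the minus strand, at chr1:92180342-92180591 for Hdac4 and chr16:10796824-10797073 for Prm1. Capitals mark GGGCGG, the core of the GC box, and TATAA, the core of the TATA box, each searched on both strands.
Hdac4: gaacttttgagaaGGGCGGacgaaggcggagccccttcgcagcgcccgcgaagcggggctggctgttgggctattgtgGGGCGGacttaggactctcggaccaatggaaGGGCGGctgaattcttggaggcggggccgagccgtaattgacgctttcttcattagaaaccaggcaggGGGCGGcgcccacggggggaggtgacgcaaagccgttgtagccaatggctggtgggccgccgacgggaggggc
Prm1: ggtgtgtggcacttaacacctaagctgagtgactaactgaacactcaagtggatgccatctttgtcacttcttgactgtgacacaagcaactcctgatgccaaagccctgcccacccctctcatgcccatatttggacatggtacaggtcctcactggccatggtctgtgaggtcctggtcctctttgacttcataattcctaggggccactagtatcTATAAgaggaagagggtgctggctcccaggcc
The Hdac4 window held 4 GGGCGG and 0 TATAA, as in promoters of broadly expressed genes, and the Prm1 window held 1 TATAA close to the start and 0 GGGCGG. Of 32851 promoter windows of this length, 32.7% held GGGCGG and 22.8% held TATAA. A match is a description of letters and says nothing of a factor.

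Beyond those probe sets the transcriptomes of the 2 genotypes were close. At a limma adjusted p of 0.05 or less, 3 of 45037 probe sets were called (0.00666%), 2 higher (0.00444%) and 1 lower (0.00222%) in Dble::R6/2, all by more than 30%, and the count was again 3 (0.00666%) without R6/2 replicate 2. At an unadjusted p under 0.05 there were 2559 probe sets (5.68%), of which 1122 (2.49%) were higher and 1437 (3.19%) lower, and without replicate 2 there were 2584 (5.74%). The methods' t-test gave 4 calls after Benjamini-Hochberg. In 8 probe sets (0.0178%), 4 higher and 4 lower (0.00888% each), the arrays of Dble::R6/2 and R6/2 did not overlap. They were the 2 Prm1 probe sets, the Hdac4 probe set, a probe set of Hemk1, a methyltransferase of translation release factors, with a difference of 0.23 (limma adjusted p = 0.789), and 4 probe sets with no gene symbol.

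The size of what could have been missed was read from the 95% interval of each probe set. For 83.4% of all probe sets the whole interval lay inside a 1.3-fold change in either direction (log2 of 0.38), for 95.6% inside 1.5-fold and for 99.4% inside 2-fold. Without R6/2 replicate 2 these shares were 86.4%, 96.9% and 99.6%. The median half-width of an interval was 0.17, and only 338 estimates passed 1.3-fold, 75 passed 1.5-fold and 14 passed 2-fold. By mean level, the share inside 1.3-fold was 95.2% in the dimmest tertile of probe sets, 74.8% in the middle tertile and 80.2% in the brightest. Near background a narrow interval says little of a transcript, and in the brightest tertile the share was 84.8% without replicate 2. The intervals are per probe set and are not simultaneous.

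The transgene comparisons of the same series had errors of the same size and far more differences. R6/2 against WT gave 12127 calls (26.9%) and 61.9% of intervals inside 1.3-fold. Dble::R6/2 against Hdac4HET gave 10422 calls (23.1%) and 65.8% inside. The allele without the transgene, Hdac4HET against WT, gave 1760 calls (3.91%) and 77% inside. In that pair the mean of pituitary transcripts ranged from 5.02 to 7.68 over WT arrays and differed by -0.64. Xist was high in 2 of 8 Hdac4HET arrays and in 5 of 8 WT arrays. How far pituitary tissue or sex contributed to those calls was not tested. Median standard errors were 0.08 in each of the 4 comparisons.

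**Figure D2:**
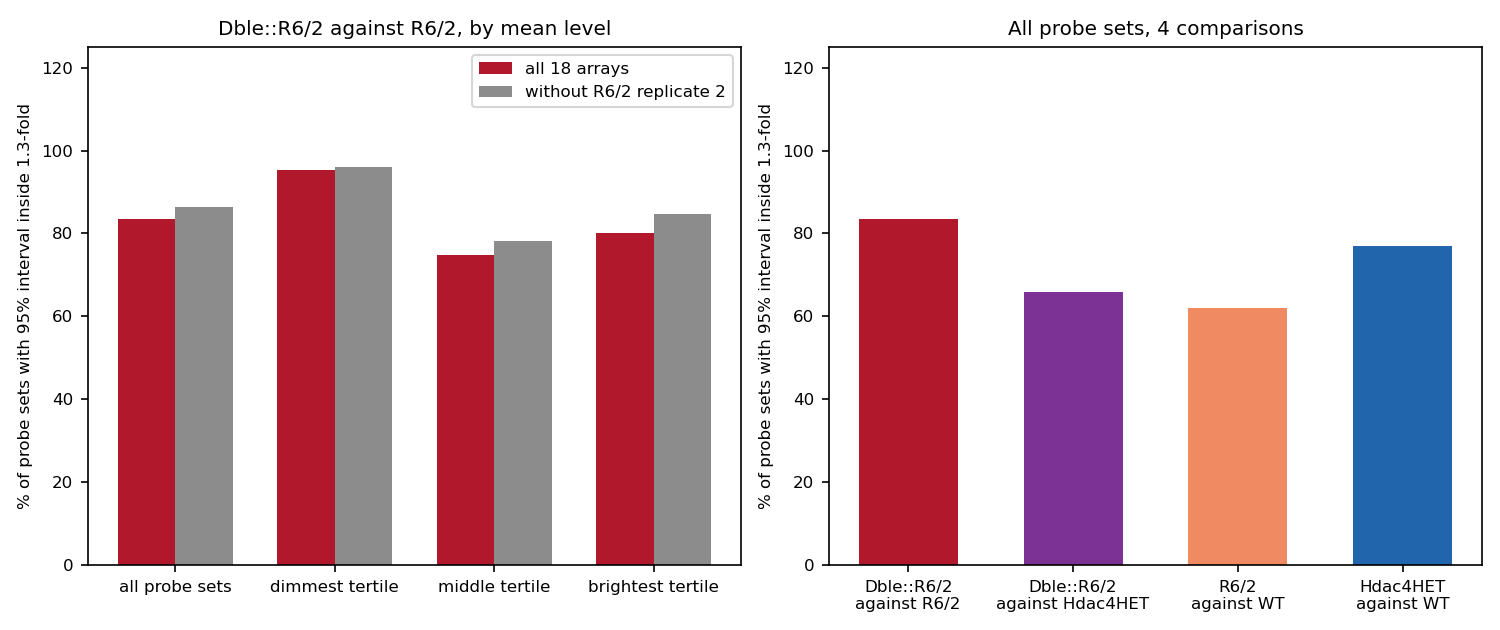
Share of probe sets whose 95% interval lay wholly inside a 1.3-fold change (y axis, % of probe sets), for Dble::R6/2 against R6/2 by mean level with all 18 arrays and without R6/2 replicate 2 (left), and for 4 comparisons (right). The share was 83.4% for Dble::R6/2 against R6/2, against 65.8% and 61.9% for the comparisons of the transgene.

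R6/2 replicate 2 decided the estimate of some well-known genes. Dlg4, the postsynaptic scaffold PSD-95, read 8.75 to 10.05 with a median of 9.46 in Dble::R6/2 and 4.23 to 9.84 with a median of 9.51 in R6/2, where 4.23 was replicate 2. Its difference of 0.36 became -0.23 without that array. Hpca, a neuronal calcium sensor, read 7.50 to 8.74 in Dble::R6/2 and 4.08 to 8.45 in R6/2, and its difference of 0.27 became -0.20. Dsp, the desmosomal protein desmoplakin, went the other way, with 7.27 in replicate 2 where the other R6/2 arrays reached 3.24 at most and Dble::R6/2 arrays 4.66. Its difference was -0.19 with and 0.28 without the array. Map1b and Fam168a, the other 2 of the 5 genes moved most, had differences of -0.19 and 1.19 with replicate 2, and of -0.68 and 0.72 without it. None of these 5 passed with or without it, by limma. Their levels also spread widely among the other arrays, with Map1b reaching down to 3.9 in Dble::R6/2.

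The keratins of the epidermis marked the same array. Krt10 read 9.21 and Krt1 8.37 in R6/2 replicate 2, against at most 7.90 and 6.47 in any Dble::R6/2 array. Krt14, a keratin of basal keratinocytes, read 5.07 there and at most 3.86 in Dble::R6/2. Over 31 measured epidermal transcripts the mean was 4.34 to 4.5 in Dble::R6/2 and 4.34 to 5.42 in R6/2, and the highest R6/2 array other than replicate 2 was at 4.51. The list differed by -0.11 (95% interval -0.34 to 0.04), and by -0.01 (-0.06 to 0.05) without replicate 2.

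Among expressed genes that did not pass, the 5 with the smallest p in each direction were examined next. On the lower side stood Aldh1a2, an enzyme that makes retinoic acid, at 5.13 to 5.79 with a median of 5.55 in Dble::R6/2, against 5.67 to 6.29 with a median of 6.13 in R6/2. In 8 of 9 Dble::R6/2 arrays it was below all R6/2 arrays. The difference was -0.53 ± 0.10 (SE, limma adjusted p = 0.163) and -0.57 (limma adjusted p = 0.0509) without R6/2 replicate 2. It was called with array weights, at -0.61 (limma adjusted p = 0.0205), and with Xist-based sex in the model, at -0.50 (limma adjusted p = 0.0448). Moxd1, a monooxygenase, differed by -0.51, Car4, a membrane carbonic anhydrase, by -0.35, Nos1, the neuronal nitric oxide synthase, by -0.32 and Erp44, a chaperone of the early secretory pathway, by -0.29. Their limma adjusted p values lay between 0.215 and 0.244. Car4 had the same size on its other probe set, with -0.34. On the higher side stood the brightest Prm1 probe set, Rex1bd with 0.31 (limma adjusted p = 0.215, and 0.0425 with all 4 genotypes in 1 fit), Grasp, a scaffold of group I metabotropic glutamate receptors, with 0.50 (limma adjusted p = 0.418), Stk32c, a brain kinase, with 0.40 (limma adjusted p = 0.671) and Pam, which amidates neuropeptides, with 0.46 (limma adjusted p = 0.691).

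Aldh1a2 and Moxd1 are also expressed in the meninges, the membranes around the brain. A list of 24 meningeal genes, drawn up after those 2 values had been seen and therefore given without an interval, held 5 genes at an unadjusted p under 0.05, all lower, among them Prelp with -0.56, Slc47a1 with -0.56 and Nid1 with -0.34. Over the brightest probe sets of all 18161 genes, 2.4% were higher and 4.04% lower at that level. Of the 24 estimates 3 were above 0, with Igfbp2 the highest at 0.28, and 21 were below, where 55.7% of all genes were below. Since the values of Aldh1a2 and Moxd1 prompted the list, no direction is read from these counts. Whether the amount of meninges in the tissue differed was not tested, and in bulk cortex fewer cells of a type cannot be told apart from less RNA per cell.

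The bounds on the other histone deacetylases were close to those on all genes. Of 17 deacetylases and sirtuins other than Hdac4, none was called and 16 had intervals inside 1.3-fold, where 88.2% of all genes did, or 90.8% without R6/2 replicate 2. On the brightest probe sets 0 of 18161 genes (0%) were called by limma. The exception was Hdac8, a class I enzyme, with 0.21 (interval -0.03 to 0.46), and 0.10 without R6/2 replicate 2. The class IIa relatives Hdac5, Hdac7 and Hdac9 differed by 0.04, 0.08 and 0.00, and by -0.04, 0.02 and 0.03 without replicate 2. The class I enzymes Hdac1, Hdac2 and Hdac3 differed by -0.15, -0.07 and -0.05, and by -0.10, -0.02 and -0.06 without replicate 2. Hdac6, a cytoplasmic tubulin deacetylase, differed by 0.03 and Hdac10, a polyamine deacetylase, by 0.05. Hdac11 differed by -0.16, and by -0.24 without replicate 2 (interval -0.36 to -0.13, limma adjusted p = 0.634). Sirt6, a nuclear sirtuin, was the lowest with -0.17. The mean over the list differed by -0.03, with an interval from -0.09 to 0.03.

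Genes that act with HDAC4 were measured next. Its corepressors and DNA-binding partners, 15 genes, had a mean difference of -0.02 (-0.07 to 0.03), from Tbl1x, a corepressor subunit, with -0.23 to Rfxank with 0.12. MEF2 factors and the muscle-type genes that HDAC4 represses, 23 genes, differed by -0.01 (-0.06 to 0.04). They ran from Mef2c with -0.12 to Ppargc1a, the mitochondrial coactivator PGC-1 alpha, with 0.17 (0.11 without replicate 2). Of the 23, 0 reached an unadjusted p under 0.05, where 2.4% of all genes were higher and 4.04% lower. The 28 kinases, phosphatases and 14-3-3 proteins that set where HDAC4 sits differed by -0.05 (-0.09 to -0.01). Of the 28 estimates 20 were below 0, where 55.7% over all genes were. Camk1g, a neuronal CaM kinase, was the lowest with -0.25, Sik3, a salt-inducible kinase, had -0.20, and Mark2 was the highest with 0.14, or 0.00 without replicate 2. None of these genes passed, by limma.

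Htt, whose human exon 1 is the transgene, was read by 4 probe sets for the mouse gene. They differed by 0.05, 0.04, -0.06 and 0.02 in order of falling level, and the widest interval, on the dimmest, ran from -0.36 to 0.41. Huntingtin and its binding partners, 18 genes, differed by 0.01 (-0.05 to 0.08), between Sh3gl3 with -0.22 and Sp1, a transcription factor, with 0.28. Bdnf, the neurotrophin that cortical neurons supply to the striatum, read 7.17 to 7.73 with a median of 7.34 in Dble::R6/2 and 7.31 to 7.75 with a median of 7.48 in R6/2 on its brightest probe set, a difference of -0.10 with an interval from -0.26 to 0.07. On the same probe set R6/2 lay below WT by a difference of -0.50 (limma adjusted p = 9.4e-04). The other Bdnf probe set differed by 0.09 (-0.32 to 0.50), or by -0.02 without R6/2 replicate 2. There R6/2 lay below WT by a difference of -0.97 (limma adjusted p = 4.0e-04). The 14 neurotrophins and receptors differed by -0.06 (-0.13 to 0.01), and their lowest members were the receptors Ntrk3 with -0.18 and Ntrk2 with -0.14.

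Across all 37 lists the differences were small. For 36 of them the 95% interval of the list mean lay inside 1.3-fold, both with all arrays and without R6/2 replicate 2, and for 29 it lay within 0.2 log2 units of 0, or 30 without replicate 2. The mean of all 18161 genes differed by -0.01 (-0.04 to 0.02), and the median gene by -0.01. The intervals came from the exact permutation distribution over 48620 assignments of the 18 arrays, or 24310 without replicate 2, and are not adjusted for 37 lists. In 4 lists the interval lay wholly below 0 and in 1 wholly above, and without replicate 2 in 5 and 1.

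The GABAergic genes had the interval farthest from 0 among the 37 lists. Their mean level was 8.63 to 8.88 with a median of 8.75 in Dble::R6/2 and 8.78 to 8.98 with a median of 8.86 in R6/2. The groups overlapped, since R6/2 replicates 1, 2, 5, 7 and 8 lay among the Dble::R6/2 arrays. The difference was -0.11 (-0.19 to -0.03), and -0.12 (-0.20 to -0.04) without replicate 2. Of 25 measured genes 20 had an estimate below 0, where 55.7% of all genes did. At an unadjusted p under 0.05 there were 6, all lower, beside 4.04% of all genes, and 0 were called. Tac2, which encodes neurokinin B, read 4.51 to 5.55 with a median of 5.04 in Dble::R6/2 and 5.11 to 6.11 with a median of 5.38 in R6/2, a difference of -0.43 with an interval from -0.75 to -0.12. Sst, the peptide somatostatin of an interneuron class, read 9.33 to 9.83 with a median of 9.61 in Dble::R6/2 and 9.67 to 10.23 with a median of 9.72 in R6/2, a difference of -0.28. For both, 6 of 9 Dble::R6/2 arrays were below all R6/2 arrays. Npy, neuropeptide Y, differed by -0.27 and Gad2, which makes GABA, by -0.21. Pvalb, the calcium buffer of fast-spiking interneurons, was the highest with 0.16. Averaged over every probe set of a gene in place of the brightest, the list difference was -0.06.

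Cortical layer genes, 23 in number, differed by -0.09 (-0.16 to -0.02), led by Foxp2, a deep-layer transcription factor, with -0.29, and Rgs8 had -0.21 and Tle4 0.07. Synaptic vesicle genes, 36 in number, differed by -0.04 (-0.08 to -0.01), from Rab3b, a vesicle GTPase, with -0.26 to Sv2a with 0.23 (0.15 without replicate 2). Syn1, which tethers vesicles, had -0.20 and Syt1, the calcium sensor of release, -0.13. The 11 cortical neuron markers differed by -0.07 (-0.15 to 0.00), and by -0.09 (-0.16 to -0.02) without replicate 2, with Rbfox3, the neuronal nuclear marker NeuN, at -0.16. Of the 11 estimates 8 were below 0, beside 55.7% over all genes, and their median was -0.11. The list value was 0.01 when every probe set of a gene was averaged. When each array was summarised by the median level over the list's genes, the difference was 0.07 for cortical neuron markers and 0.03 for synaptic vesicle genes, whose gene differences had a median of -0.04.

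Lists of neuronal function gave intervals on both sides of 0. Striatal-type signalling genes, 24 in number, differed by -0.12 (-0.26 to 0.02), from Ppp1r1b, the phosphatase inhibitor DARPP-32, with -0.34 to Bcl11b with 0.02. Glutamate receptors and postsynaptic genes, 29 in number, differed by -0.01 (-0.10 to 0.09) and by -0.04 (-0.11 to 0.03) without replicate 2, from Gria3, an AMPA receptor subunit, with -0.19 to Dlgap1, a scaffold, with 0.22 (0.08 without replicate 2). Ion channels, 55 in number, differed by -0.03 (-0.09 to 0.03), from Kcnip2 with -0.28 to Kcnj4 with 0.31 (0.18 without replicate 2), and the calcium channel Cacna1c had -0.26 ± 0.06 (SE, limma adjusted p = 0.691). Immediate early genes, 32 in number, differed by -0.01 (-0.12 to 0.09), from Klf10 with -0.34 to Ier2 with 0.20 (0.10 without replicate 2), with Atf3 at -0.28 and Arc, the activity-regulated cytoskeletal gene, at -0.27. REST targets, 21 in number, differed by 0.00 (-0.05 to 0.05), from Syn1 with -0.20 to Stmn2 with 0.09.

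Of the lists for protein quality control and metabolism, the proteasome and ubiquitin genes were the 1 list with an interval above 0. Their mean level was 10.08 in Dble::R6/2 and 10.01 in R6/2, a difference of 0.07 (0.03 to 0.11), and 0.06 (0.02 to 0.10) without replicate 2. Of 40 genes 31 had an estimate above 0, where 44.3% of all genes did, and 7 were higher and 2 lower at an unadjusted p under 0.05, beside 2.4% higher and 4.04% lower over all genes. Psmd13, a lid subunit of the proteasome, read 8.92 to 9.75 with a median of 9.20 in Dble::R6/2 and 8.22 to 9.20 with a median of 8.90 in R6/2, a difference of 0.36. Psmb4, a core subunit, differed by 0.22 and Psmd4, a ubiquitin receptor, by 0.19. Psmd7 was the highest with 0.44, or 0.21 without replicate 2, and Usp14, the deubiquitinase of the proteasome, the lowest with -0.23. None passed, by limma.

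Oxidative phosphorylation genes, 63 in number, differed by 0.02 (-0.01 to 0.05), with 61 intervals inside 1.3-fold, from Cycs with -0.16 to Ndufa10 with 0.20 (0.13 without replicate 2). Heat shock proteins and chaperones, 40 in number, differed by 0.01 (-0.05 to 0.07), from Hspa1b, an inducible Hsp70, with -0.18 to Dnajc3 with 0.30. Autophagy and lysosomal genes, 33 in number, differed by 0.03 (-0.02 to 0.08), from Becn1 with -0.11 (-0.07 without replicate 2) to Ctsd, the protease cathepsin D, with 0.24. Cholesterol synthesis genes, 22 in number, differed by 0.01 (-0.07 to 0.10), from Nsdhl with -0.16 to Fdps with 0.22 (0.12 without replicate 2). The integrated stress response, 20 genes, differed by 0.00 (-0.07 to 0.07), from Shmt2 with -0.26 to Atf5 with 0.26 (0.15 without replicate 2). Histone genes, 12 in number, differed by 0.04 (-0.04 to 0.12), Hox genes, 33 in number and silent in adult cortex, by -0.01 (-0.10 to 0.08), and 7 qPCR reference genes by 0.03 (-0.05 to 0.11).

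**Figure D3:**
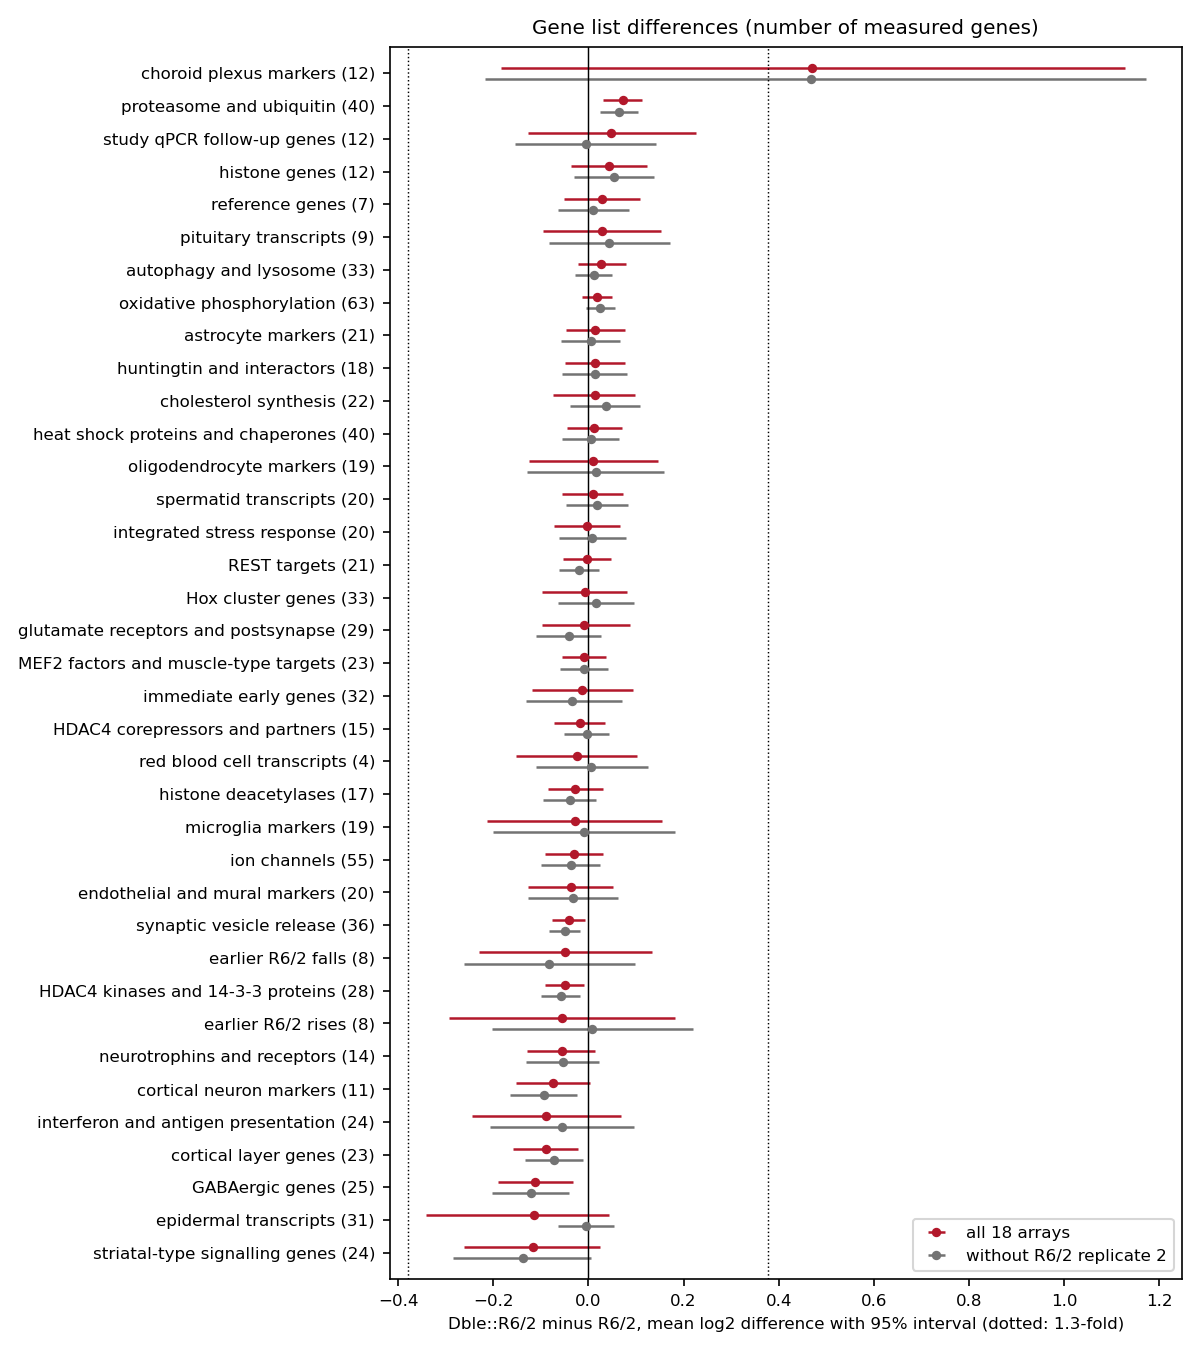
Difference of list means, Dble::R6/2 minus R6/2 (x axis, log2 units), for 37 gene lists (y axis, number of measured genes in brackets) with 95% permutation intervals, using all 18 arrays or leaving out R6/2 replicate 2; dotted lines mark 1.3-fold. All intervals but that of the choroid plexus markers lie inside the dotted lines, and the epidermal interval narrows without replicate 2.

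Markers of other cells in the tissue were measured as well. Astrocyte markers differed by 0.01 (-0.05 to 0.08), from Ntsr2 with -0.14 (-0.22 without replicate 2) to Sox9, a glial transcription factor, with 0.29. Microglia markers differed by -0.03 (-0.21 to 0.16), from Fcrls with -0.27 to Aif1 with 0.24, or -0.16 and 0.37 without replicate 2. Oligodendrocyte markers differed by 0.01 (-0.13 to 0.15), from Pdgfra, the receptor of their precursors, with -0.12 to Mobp, a myelin gene, with 0.17. Endothelial and mural markers differed by -0.04 (-0.13 to 0.05), from Acta2, smooth muscle actin, with -0.30 to Flt1 with 0.18. Interferon and antigen presentation genes differed by -0.09 (-0.24 to 0.07), from H2-K1, an MHC class I gene, with -0.38 to Stat2 with 0.12. Red blood cell transcripts differed by -0.02 (-0.15 to 0.10) and pituitary transcripts by 0.03 (-0.10 to 0.15).

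The choroid plexus, the epithelium that makes cerebrospinal fluid, was the exception. Its 12 markers averaged 4.05 to 6.59 with a median of 4.79 in Dble::R6/2, against 4.34 to 5.03 with a median of 4.42 in R6/2. Dble::R6/2 replicates 8, 9 and 4 were high, at 6.59, 5.85 and 5.74, and replicates 3, 6 and 1 were the 3 lowest of the 18 arrays, at 4.05, 4.17 and 4.29. Ttr, the thyroid hormone carrier that this epithelium secretes, ranged from 8.52 to 13.93 in Dble::R6/2 and from 9.75 to 12.99 in R6/2. Folr1, a folate receptor, differed by 0.64, Otx2, a transcription factor of the epithelium, by 0.67, Ttr by 0.92 and Clic6 by 0.12. The list differed by 0.47 with an interval from -0.18 to 1.13, so the direction was not settled, and by -0.08 without the 3 high arrays. Leaving out those 3 arrays moved the GABAergic, cortical layer and proteasome lists to -0.11, -0.08 and 0.08, and left 3 called probe sets. Whether the dissections took in unequal amounts of choroid plexus was not tested.

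**Figure D4:**
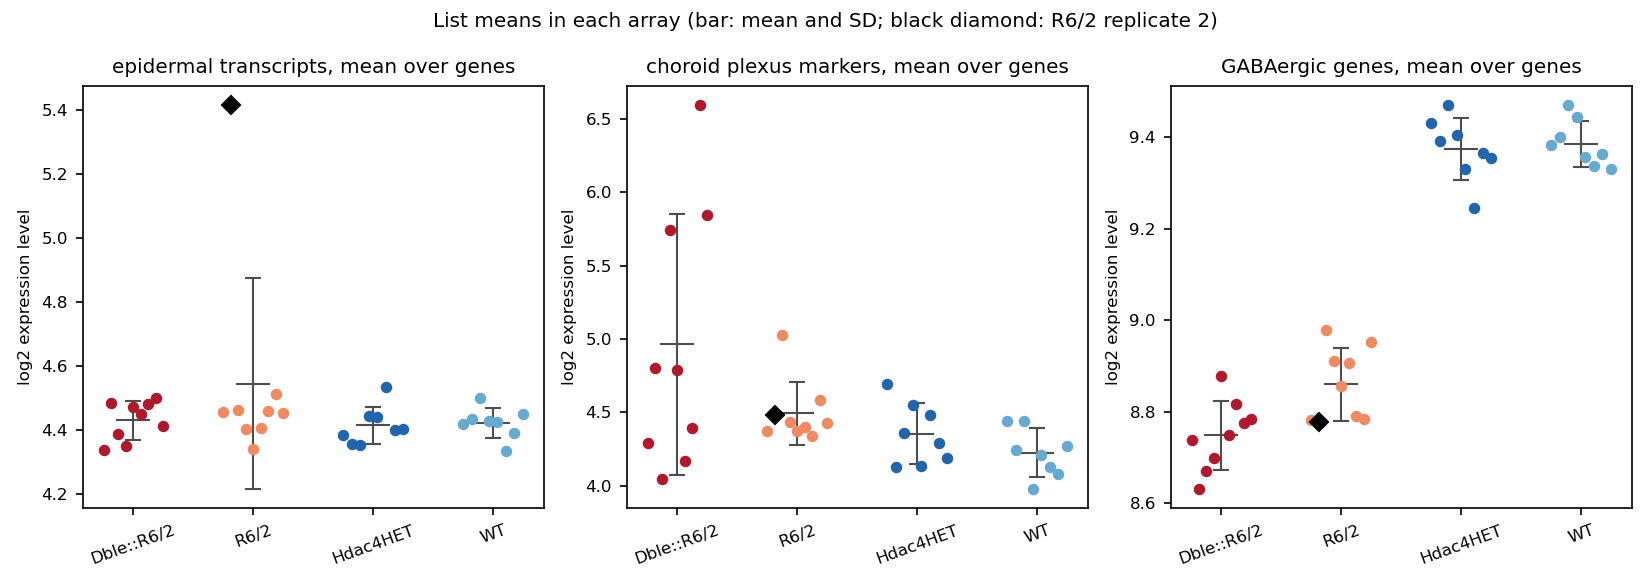
Mean log2 level over the genes of 3 lists (y axis) in each array, by genotype (x axis); points are mice, bars are mean and SD, and the black diamond is R6/2 replicate 2. That array stands at 5.42 on epidermal transcripts, 3 Dble::R6/2 arrays stand above 5.7 on choroid plexus markers, and Dble::R6/2 and R6/2 overlap on GABAergic genes, both below Hdac4HET and WT.

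Set beside the effect of the transgene, the shifts between Dble::R6/2 and R6/2 were small. These comparisons share arrays, so their values are given side by side and not related to each other. GABAergic genes differed by -0.11 between Dble::R6/2 and R6/2, by -0.63 between Dble::R6/2 and Hdac4HET, and by -0.53 between R6/2 and WT. For immediate early genes the 3 values were -0.01, -0.81 and -0.52, for cholesterol synthesis 0.01, -0.47 and -0.48, and for microglia markers -0.03, -0.44 and -0.55. For cortical layer genes they were -0.09, -0.59 and -0.44, for glutamate receptors and postsynaptic genes -0.01, -0.38 and -0.34, and for proteasome and ubiquitin genes 0.07, 0.22 and 0.15. Between Hdac4HET and WT, whose levels are the baselines of the last 2 values, these lists differed by -0.01, 0.28, 0.01, -0.13, 0.06, 0.03 and -0.0008 in the same order.

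Next came 16 genes that respond strongly to the transgene, which had been picked on the R6/2 and WT arrays. Pou4f1, a transcription factor of sensory neurons, was higher by 3.48 in R6/2 against WT, and read 6.93 to 8.34 with a median of 7.70 in Dble::R6/2 and 7.05 to 8.39 with a median of 7.29 in R6/2. Its difference was 0.11 (-0.30 to 0.52), and 0.23 without R6/2 replicate 2. Ighm, an immunoglobulin heavy chain, was lower by a difference of -2.98 in R6/2 against WT and differed by -0.10 (-0.54 to 0.34) between Dble::R6/2 and R6/2, or -0.03 without replicate 2. The other rising genes, Onecut2, Twist1, Shox2, Cks2, Tpx2, Rgs13 and Ifi27l2a, differed by 0.02, -0.12, -0.15, 0.01, 0.09, -0.21 and -0.19, and Ifi27l2a by -0.03 without replicate 2. The other falling genes, P2ry12, Ano3, Ddit4l, Ryr1, Scn4b, Myl4 and Abi3bp, differed by 0.01, 0.04, 0.01, -0.07, -0.03, 0.08 and -0.33. P2ry12 and Ano3 had wide intervals, from -0.69 to 0.72 and from -0.39 to 0.47. Without replicate 2 they differed by -0.18 and -0.07. Abi3bp, an extracellular matrix protein, alone had an unadjusted p under 0.05 (limma adjusted p = 0.789), where 2.4% of all genes were higher and 4.04% lower. Without the transgene, Hdac4HET lay below WT for P2ry12, by a difference of -1.18 (limma adjusted p = 0.0344). For Ano3 that difference was -1.22 (limma adjusted p = 0.0429). No other gene of the 16 was called between Hdac4HET and WT. The interaction over all 4 genotypes, described below, was 1.19 for P2ry12 and 1.26 for Ano3. Neither was called (limma adjusted p = 0.382 and 0.293). The 8 rising genes differed on average by -0.06 (-0.29 to 0.18) between Dble::R6/2 and R6/2, by 2.30 between Dble::R6/2 and Hdac4HET and by 2.46 between R6/2 and WT. The 8 falling genes differed by -0.05 (-0.23 to 0.13), -1.97 and -2.21. Between Dble::R6/2 and R6/2, 1 of the 8 rising and 3 of the 8 falling genes had intervals inside 1.3-fold, where 88.2% of all genes did.

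Larger sets were chosen from either side of the design. The 469 probe sets called and lower by more than 1 log2 unit in R6/2 against WT had a median difference of 0.06 between Dble::R6/2 and R6/2, which became -0.01 without R6/2 replicate 2. The 133 called and higher by more than 1 had a median of 0.01, and 0.04 without it. Chosen instead by Dble::R6/2 against Hdac4HET, 241 lower probe sets had a median of -0.04 and 132 higher ones a median of 0.06. Since the R6/2 arrays chose the first 2 sets and the Dble::R6/2 arrays the last 2, no direction is read from these medians. Over all probe sets 83.4% of intervals lay inside 1.3-fold. Of the 469 only 27.7% did and of the 133 42.9%, and of the 241 47.3% and of the 132 46.2%. Only 1 of these probe sets, a Prm1 probe set, was called between Dble::R6/2 and R6/2.

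**Figure D5:**
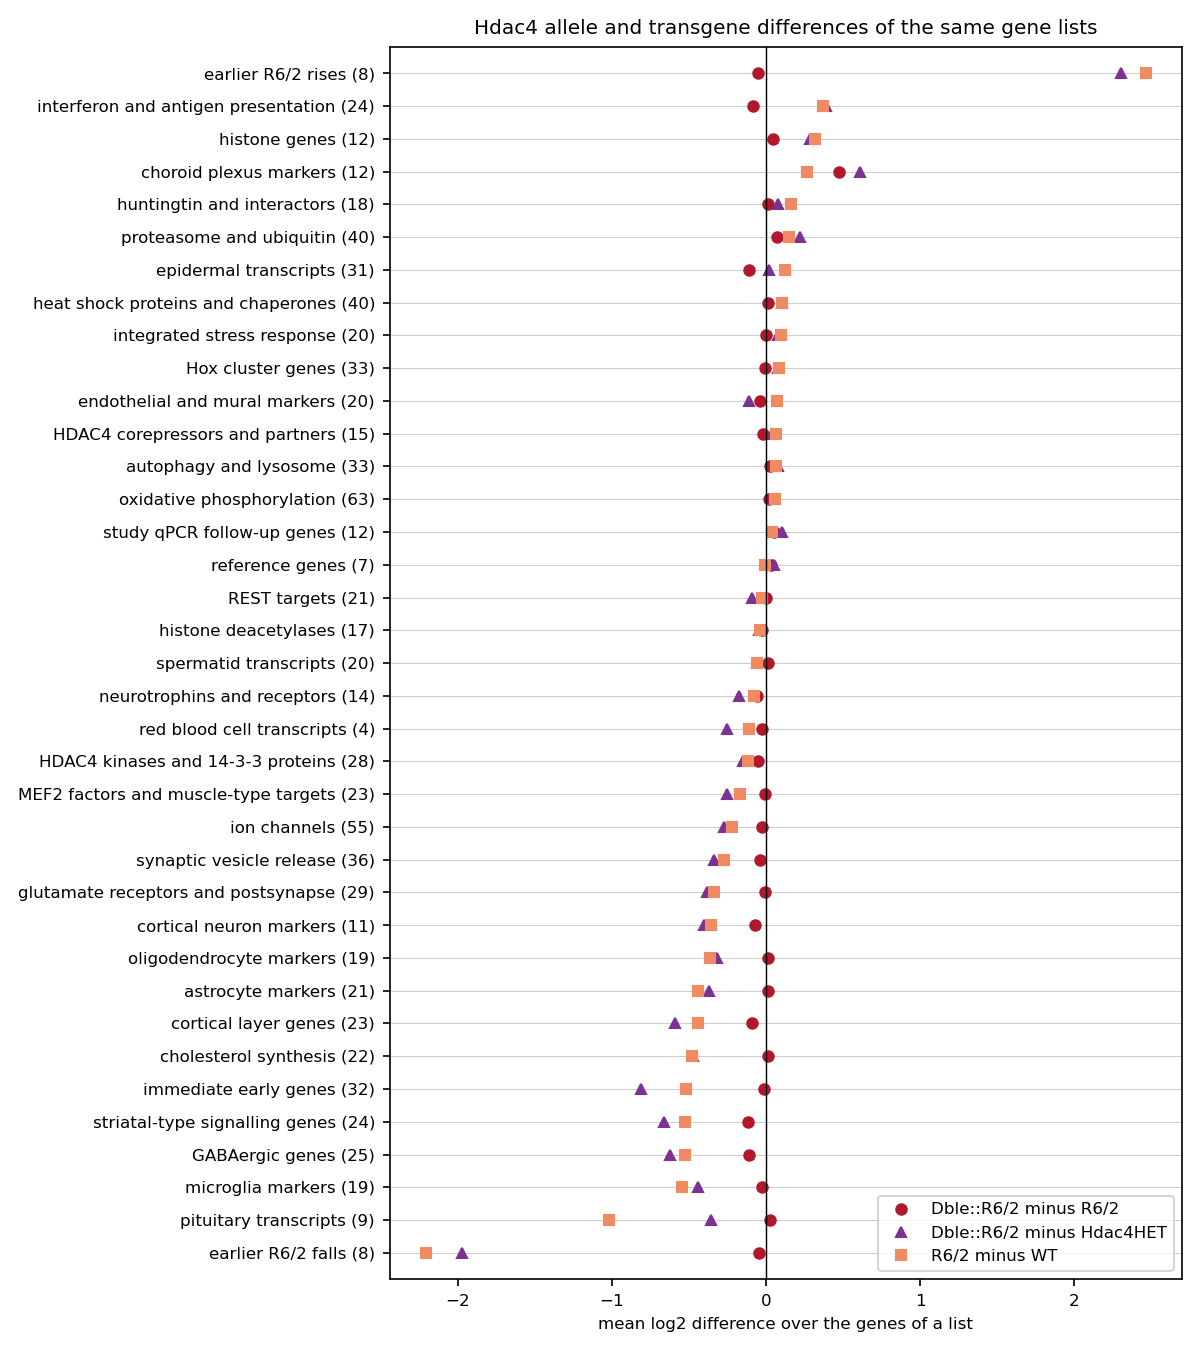
Mean log2 difference over the genes of each of 37 lists (x axis, log2 units) in 3 comparisons that share arrays: Dble::R6/2 minus R6/2, Dble::R6/2 minus Hdac4HET, and R6/2 minus WT. The circles for Dble::R6/2 minus R6/2 lie within 0.12 of 0 for 36 lists and at 0.47 for choroid plexus markers, while the other symbols reach 2.46 and -2.21.

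The study followed up genes by qPCR that it had picked on arrays of younger mice. Of the 12 genes taken for these, 10 carry the name of an assay or its current symbol, Nedd4, Cyp39a1, Cd2ap, Zc3h15, Secisbp2l, Peli1, Malat1, Lrp1b, Enpp5 and Golm2. Eif4g2 was taken for an assay that the study describes as Eif4g1, which is a different gene. Ro60 stands for an assay whose gene could not be matched with certainty. The 12 differed on average by 0.05 (-0.13 to 0.23), and by -0.01 (-0.16 to 0.14) without R6/2 replicate 2. Without Eif4g2 and Ro60 the difference was 0.06. Cyp39a1, an oxysterol hydroxylase, was the highest with 0.21 and Enpp5 the lowest with -0.12, or -0.28 without replicate 2. By qPCR in the younger mice the study found small differences only for its Secis and Casc4 assays, here Secisbp2l and Golm2. Both went against the direction of its arrays. At 15 weeks Secisbp2l differed by -0.02 (-0.16 to 0.11), and Golm2 by 0.04 to 0.11 when 1 array at a time was left out. Of the 12, 0 reached an unadjusted p under 0.05, beside 2.4% higher and 4.04% lower over all genes. Nedd4, a ubiquitin ligase, had a wide interval, from -0.47 to 0.69, and its difference of 0.11 became 0.01 without replicate 2. Malat1, a nuclear long non-coding RNA, differed by 0.17 with and -0.07 without that array.

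Whether the allele acted differently with and without the transgene was tested as an interaction over all 4 genotypes. It was called for 1 of 45037 probe sets (0.00222%), the dimmest of Prm1, which was higher by 2.01 in Dble::R6/2 against R6/2 and by 0.99 in Hdac4HET against WT (interaction 1.03 ± 0.14, SE, limma adjusted p = 9.1e-04). At an unadjusted p under 0.05 there were 4444 (9.87%). On the second brightest Prm1 probe set the interaction was 0.64 (limma adjusted p = 0.223), and on the brightest 0.04 (limma adjusted p = 0.911). The dimmest averaged 2.54 in R6/2 and 2.49 in WT, where the lowest value on any array was 2.04. For Hdac4 itself the interaction was 0.15 on the brightest probe set and -0.10 on the second brightest, with intervals from -0.05 to 0.35 and from -0.31 to 0.10. Without R6/2 replicate 2 a second probe set was called, of Faim2, a neuronal inhibitor of Fas signalling, with -0.75 (limma adjusted p = 0.028). It averaged 7.95 in Dble::R6/2 and 8.15 in R6/2, against 9.52 in Hdac4HET and 9.12 in WT, and the difference between Dble::R6/2 and R6/2 was -0.20, or -0.35 without replicate 2 (limma adjusted p = 0.554).

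The 40 measured genes nearest to Hdac4 in RefSeq order, 20 on each side, were checked because sequence around a targeted allele can differ from that of its wild-type counterpart. None was called, 1 was higher and 3 were lower at an unadjusted p under 0.05, 36 had intervals inside 1.3-fold, and the median difference was 0.00. The 3 lower genes lay on 1 side of Hdac4. They were Col6a3 with -0.50 (-0.85 to -0.14, limma adjusted p = 0.789), Ackr3 with -0.27 and Asb18 with -0.17. The higher gene was Ndufa10, on the other side, with 0.20, or 0.13 without R6/2 replicate 2. Over all genes 0% were called, 2.4% were higher and 4.04% lower, and 88.2% lay inside 1.3-fold.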

How the data were processed

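Cortex RNA was hybridised on Affymetrix mouse arrays, each mouse on its own array. The authors deposited 1 log2 value per probe set and array. How these were normalized and summarised is not given in the sources used here. They ranged from 2.04 to 14.1, array medians from 5.44 to 5.52, and 0 value columns were left unused.

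Of 45037 probe sets, 34945 had 1 gene symbol, 932 several and 9160 none in the platform annotation. Of these, 34741 matched a gene of the RefSeq table (GRCm38.p6), which gave the current symbol. Each of 18161 genes was represented by its brightest probe set, on average over 34 arrays, and 848 of 944 genes in 37 lists were measured. The members and lists were chosen with earlier results of these data known, and 1 meningeal list was added after values had been seen. The 8 genes rising and the 8 falling in R6/2 came from these same arrays.

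Each pair of genotypes was fitted on its own arrays, without covariates, by lmFit and eBayes of limma 3.58.1 (R 4.3.3), with Benjamini-Hochberg adjustment over all probe sets, calls at an adjusted p of 0.05 or less. List differences are means per array, with a 95% interval by inverting the exact 2-sided permutation test. The interaction used all 4 genotypes. Named genes were all calls, Hdac genes, Htt, Bdnf and Prm1, the 5 smallest p in each direction above the median level, the highest and lowest gene of a list, the 5 genes moved most by R6/2 replicate 2, the lists of strong R6/2 changes and of qPCR genes. Others, such as Sst, Npy, Psmd13, the keratins and Faim2, were singled out once their values were known. Scripts were tested on simulated data. The p-values measure the spread between the arrays of a genotype, and 9 arrays a group limit the precision. Arrays of younger mice were not analysed here. Figures used matplotlib 3.10.9.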

Additional observations from a re-analysis of the deposited data

Results flagged for a closer look

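A sample was singled out where its gap to the next sample took up more than 0.493 of its group's range, over 106 sets of 9 values (list means, called genes and genes of smallest p, in Dble::R6/2 or R6/2). Chance does so in about 1 of 20 groups. There were 10 such cases, and 6 of them were R6/2 replicate 2. Replicate 2 was high on epidermal transcripts (5.42 against 4.51 in the next array, a gap of 0.842 of the range) and on HDAC4 corepressors and partners (0.532). It was low on autophagy and lysosomal genes (9.85 against 9.97, 0.611), REST targets (0.556), reference genes (0.51) and Pam (0.541). Dble::R6/2 replicate 2 was low on HDAC4 kinases and 14-3-3 proteins (0.58), and Dble::R6/2 replicate 1 was high on immediate early genes (8.08 against 7.85, 0.572). R6/2 replicate 3 was high on choroid plexus markers (5.03 against 4.59, 0.637) and R6/2 replicate 6 was low on Grasp (0.578).

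The dimmest Prm1 probe set differed between the backgrounds by the test of the interaction. It was higher by 2.01 in Dble::R6/2 against R6/2 and by 0.99 in Hdac4HET against WT, a difference of 1.03 (limma adjusted p = 9.1e-04). In that test no other Prm1 probe set was called.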

How the results depend on the processing

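Named genes (154 probe sets) were refitted under up to 27 alternatives, and 29 probe sets changed sign in at least 1, in 0 cases where the interval excluded 0. The largest of these was Dlg4, at 0.36. Called probe sets, 3 with all arrays, numbered 7 with all 4 genotypes in 1 fit, 6 with array weights and 1 among brighter probe sets only, a setting that leaves out the 2 dim Prm1 probe sets. Leaving out 1 array gave 3 to 4. With array weights the brightest Hdac4 probe set was called, at -0.39 (limma adjusted p = 0.0434), and with all 4 genotypes in 1 fit the brightest Prm1 probe set, at 0.30 (limma adjusted p = 0.046), as was Rex1bd, at 0.31 (limma adjusted p = 0.0425). Aldh1a2 was called with array weights, at -0.61 (limma adjusted p = 0.0205), and with Xist-based sex in the model, at -0.50 (limma adjusted p = 0.0448). The cause of these changes was not tested. Same-numbered arrays correlated between -0.14 and 0.45, over 0.1 in 6 of 9 pairs and not in all, and 4 of 18 were closest to their own number, so the numbers were not taken as pairs. With a replicate block 4 probe sets were called, the second brightest Hdac4 probe set among them (limma adjusted p = 0.0137), and the interaction gave 3 calls, against 1 without it and 2 without R6/2 replicate 2. The share of probe sets inside 1.3-fold lay between 76.4% and 87.7%.

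When each array was summarised by the median level over a list's genes, list differences were -0.10 for HDAC4 kinases and 14-3-3 proteins, 0.039 for MEF2 factors, 0.030 for neurotrophins, -0.069 for REST targets, 0.087 for huntingtin and interactors, 0.031 for synaptic vesicle genes, -0.14 for endothelial markers and 0.067 for cortical neuron markers. The medians of the gene differences themselves were -0.048, -0.021, -0.069, 0.036, -0.0055, -0.038, -0.024 and -0.11 in the same order. Cortical neuron markers were at 0.0061 when every probe set of a gene was averaged.

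With array weights the sign turned for the dimmest Htt probe set (-0.0089), Hdac5 (-0.027), Dlg4 (-0.048), Dsp (0.11), Hpca (-0.051), Onecut2 (-0.0020), P2ry12 (-0.049), Ano3 (-0.0064), Ddit4l (-0.068), Zc3h15 (-0.050), Secisbp2l (0.012), Peli1 (0.028), Malat1 (-0.0095), Lrp1b (-0.0070), Bcl11b (-0.023), H2bc21 (0.031) and Krt1 (0.015). With quantile normalization it turned for Hdac9 (-0.0023), Ddit4l (-0.0084) and Lrp1b (-0.012). With Xist-based sex in the model it turned for Ddit4l (-0.0058) and Peli1 (0.0075). Leaving out 1 array at a time, the values that crossed 0 ranged as follows: the brightest Htt probe set -0.0011 to 0.11, the dimmest Htt probe set -0.074 to 0.14, the dimmest Bdnf probe set -0.018 to 0.18, Hdac5 -0.039 to 0.068, Hdac9 -0.010 to 0.033, Dlg4 -0.23 to 0.47, Map1b -0.68 to 0.17, Dsp -0.36 to 0.28, Hpca -0.20 to 0.35, Onecut2 -0.028 to 0.051, Cks2 -0.085 to 0.11, P2ry12 -0.18 to 0.18, Ano3 -0.080 to 0.10, Ddit4l -0.045 to 0.053, Scn4b -0.096 to 0.018, Myl4 -0.015 to 0.15, Nedd4 -0.011 to 0.25, Zc3h15 -0.066 to 0.16, Ro60 -0.028 to 0.067, Peli1 -0.045 to 0.045, Malat1 -0.068 to 0.25, Lrp1b -0.055 to 0.12, Bcl11b -0.012 to 0.060, H2bc21 -0.16 to 0.038, Clic6 -0.011 to 0.18, Gh -0.17 to 0.046, Slc17a7 -0.011 to 0.15 and Krt1 -0.23 to 0.089.

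Depth cannot be read from array values, and the dimmest tertile lies near background. The intervals cover the spread between arrays only. Leaving out the 3 arrays high in choroid plexus markers, those whose sex label goes against Xist, or 2 qPCR genes, Eif4g2 and Ro60, was chosen after seeing the data.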
